A study of Mus musculus with 8 samples.

Results

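The HoxC cluster on mouse chromosome 15 was examined in single nuclei of adult midbrain dopamine neurons from PRC2 mutant and wt mice. The genes considered were Hoxc4, Hoxc5, Hoxc6, Hoxc8, Hoxc9 and Hoxc10, and 3 of the 6 have a row among the 23481 genes of the count table, namely Hoxc4, Hoxc5 and Hoxc10. Hoxc6, Hoxc8 and Hoxc9 were not analysed here. They were followed in nuclei split by the summed UMIs (unique molecular identifiers, each 1 captured transcript) of Th, Slc6a3, Slc18a2 and Ddc. Nuclei with at least 5 such UMIs per 10000 are called dopamine nuclei, and those below 5 are called other nuclei.

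The PRC2 mutant library pooled 2 female mice and 1 male mouse aged 8 months, and so did the wt library. Both carry the strain label DatCreEed, which joins Cre driven by the dopamine transporter promoter with Eed, a core subunit of Polycomb repressive complex 2 (PRC2). The alleles of the wt mice and the marker behind the sort are not given in the sources used here. Each library was read on 4 flow cell lanes, which are not replicates and are not kept apart by nucleus. With 1 library per genotype no genotype difference could be tested, and genotype, mice and library cannot be told apart. Every interval below is an exact 95% interval that covers counting error only.

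Hox genes encode homeodomain transcription factors that give cells their position along the head-to-tail axis. Genes at the 3′ end of a cluster (Hoxc4, Hoxc5) are used in anterior domains such as the cervical spinal cord, and genes towards the 5′ end (Hoxc9, Hoxc10) in thoracic and lumbar domains. Midbrain lies anterior to the Hox domains, and PRC2, which methylates lysine 27 of histone H3, is known for holding silent Hox clusters off. Hox proteins bind DNA together with Pbx, Meis and Pknox cofactors.

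All 6 genes encode the helix of the homeodomain that contacts DNA with closely related bases. The stretch is shown for 5 of them because 3 of the 6 genes have no row, and it lets those be compared with Hoxc4 and Hoxc10, which do. It was read 5′ to 3′ from the GENCODE M21 transcripts, and capitals mark bases that differ from Hoxc4.
Hoxc4: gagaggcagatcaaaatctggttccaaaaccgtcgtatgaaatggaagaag
Hoxc6: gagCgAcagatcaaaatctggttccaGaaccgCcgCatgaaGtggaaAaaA
Hoxc8: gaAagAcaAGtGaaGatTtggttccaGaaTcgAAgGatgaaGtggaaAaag
Hoxc9: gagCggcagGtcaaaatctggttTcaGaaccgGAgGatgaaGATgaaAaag
Hoxc10: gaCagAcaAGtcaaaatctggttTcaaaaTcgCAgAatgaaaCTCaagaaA
Of the 51 bases, 8 differ from Hoxc4 in Hoxc6, 14 in Hoxc8, 11 in Hoxc9 and 13 in Hoxc10.

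The window from 250 bases before to 50 bases after a Hoxc4 start site is shown because Hoxc4 was the highest of the 3 measured genes. It lies at chr15:103034145-103034444 on the plus strand of GRCm38.p6 (RefSeq), and capitals mark CpG dinucleotides. Of the 6 genes, 1 matched the RefSeq promoter table.
Hoxc4 promoter: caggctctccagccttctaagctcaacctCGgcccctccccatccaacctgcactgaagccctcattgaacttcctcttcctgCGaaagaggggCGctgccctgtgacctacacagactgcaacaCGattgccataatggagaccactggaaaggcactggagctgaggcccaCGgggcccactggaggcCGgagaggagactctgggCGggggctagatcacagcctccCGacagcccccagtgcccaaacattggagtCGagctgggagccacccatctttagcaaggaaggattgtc
It holds 9 CpG, against a median of 7 over 32544 promoter windows of the same length, and 46.1% of the windows hold at least as many. The Pbx-Hox motif TGATNNAT and the homeodomain motif TAATTA, searched on both strands, are absent from it. They occur in 8.79% and 5.29% of all windows.

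The mutant library held 3968 nuclei with a median of 17860 UMIs, and the wt library 1772 nuclei with a median of 21532.5 UMIs. Dopamine nuclei numbered 2875 in the mutant (68742978 UMIs in all) and 1320 in the wt library (39383984 UMIs). Other nuclei numbered 1093 in the mutant (19458348 UMIs) and 452 in the wt library (7156906 UMIs). The 2 libraries shared 4 cell barcodes. Genes outside the rule followed the dopamine label in part. Ret, a receptor of these neurons, was at 233 CPM (UMIs per 1000000 UMIs of the class) in mutant dopamine and 45 CPM in mutant other nuclei, and at 185 CPM in wt dopamine and 30.0 CPM in wt other nuclei. By the 2-fold rule given below, 3 of 9 listed dopamine factors (En1, En2 and Lmx1b) were higher in mutant dopamine than in mutant other nuclei. None was lower, and over all genes 1.23% were higher. Lmx1a did not separate, at 101 CPM in mutant dopamine and 99.8 CPM in mutant other nuclei. Eed was at 41.3 CPM in mutant and 21.4 CPM in wt dopamine nuclei, but the labels do not say which part of the gene is deleted, so these 3′ tags do not check the genotype.

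Hoxc4 and Hoxc5 were abundant in mutant dopamine nuclei and all but absent from the wt library. Hoxc4 had 8107 UMIs in mutant dopamine nuclei (118 CPM, 115 to 121), against 1 UMI in wt dopamine nuclei (0.025 CPM, 0.00064 to 0.14). That is a ratio of 4645 (833 to 183476), and 1682 of the 2875 mutant dopamine nuclei held at least 1 Hoxc4 UMI. Hoxc5 had 7288 UMIs in mutant dopamine nuclei (106 CPM, 104 to 108) and 0 UMIs in wt dopamine nuclei, so it was at least 1392-fold higher when set against a limit of 3 counts over the class. Hoxc10, a gene of lumbar levels, had 19 UMIs in mutant dopamine nuclei (0.28 CPM, 0.17 to 0.43) and 0 in wt dopamine nuclei, at least 3.63-fold higher. The 3 genes summed to 15414 UMIs in mutant dopamine nuclei (224.2 CPM), against the 1 Hoxc4 UMI in wt dopamine nuclei, a ratio of 8831 (1585 to 348826). That wt UMI came from a nucleus of over 50000 UMIs. Without nuclei of that depth the summed level was at least 1814-fold higher in the mutant.

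**Figure D1:**
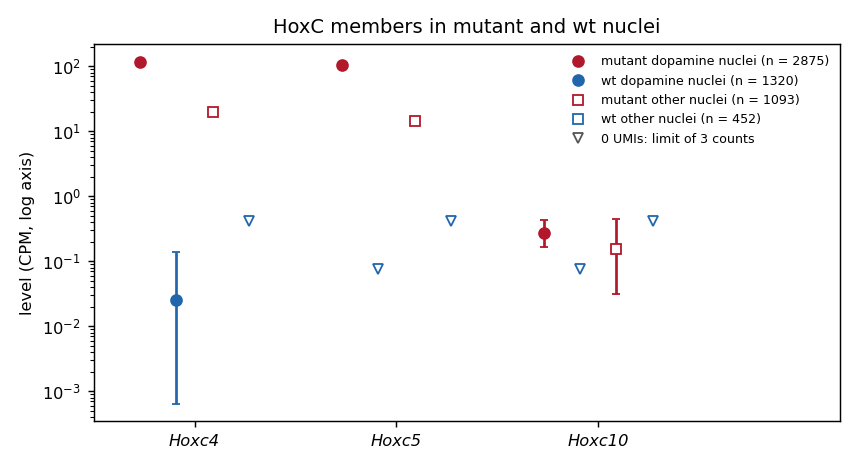
Level of Hoxc4, Hoxc5 and Hoxc10 (CPM, log axis) in mutant and wt dopamine nuclei (filled circles) and mutant and wt other nuclei (open squares), with exact 95% Poisson intervals. Triangles stand at the limit of 3 counts where a class had 0 UMIs. Hoxc4 and Hoxc5 reach 118 and 106 CPM in mutant dopamine nuclei, and Hoxc10 stays at 0.28 CPM.

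Genes were called at 2-fold on CPM plus a pseudocount of 5, and a gene needed 50 UMIs summed over the 2 libraries. Hoxc4 and Hoxc5 were both called higher in mutant dopamine nuclei, and Hoxc10 had too few UMIs to be measured by this rule. By the same rule 156 of 16324 genes were higher in mutant dopamine nuclei (0.956%) and 49 were lower (0.3%). In other nuclei Hoxc4 and Hoxc5 were also both called higher, where 0.282% of 13491 genes were higher and 0.326% lower. There Hoxc4 had 393 UMIs in the mutant (20.2 CPM, 18.2 to 22.3) and 0 in the wt library, at least 48.2-fold higher. Hoxc5 had 278 UMIs in mutant other nuclei (14.3 CPM, 12.7 to 16.1) and 0 in wt other nuclei, at least 34.1-fold higher. Hoxc10 had 3 UMIs in mutant other nuclei and 0 in wt other nuclei, which allows no fold. The wt library was thus at 0 or 1 UMI for each of the 3 genes in both classes.

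The 3 measured genes were not equally high. Their order was Hoxc4, Hoxc5 and Hoxc10 in CPM, per kb of annotated exons and per kb of annotated gene span. Per kb of annotated exons, Hoxc4 was at 45.9 CPM per kb in mutant dopamine nuclei (44.9 to 46.9), Hoxc5 at 34.3 (33.5 to 35.1) and Hoxc10 at 0.14 (0.087 to 0.23). None of these intervals overlap. Hoxc4 was 1.11 times Hoxc5 in CPM, 1.34 times per kb of exons and 3.1 times per kb of gene span. The annotated Hoxc5 span of 49.987 kb is set by a noncoding transcript, while its coding transcript covers 3.615 kb. The order per kb of span therefore depends on which transcript is taken. Whether the Hoxc5 count holds reads of the genes inside its span was not tested. The level of a 3′ tag assay need not scale with exon length, so the per-kb sizes carry that limit. Hoxc10 carries a further one, since 87.3% of its length lies inside the annotated Hoxc5 span. Whether its count lost reads there was not tested, so its place in the order is that of its row alone.

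Upstream of the 6 genes lie Hoxc11, Hoxc12 and Hoxc13, which act at the tail end of the axis and, for Hoxc13, in hair and nail, and Hotair, a noncoding RNA read from the opposite strand. They had 0 UMIs in wt dopamine nuclei. Hoxc13 had 672 UMIs in mutant dopamine nuclei (9.78 CPM), at least 128-fold higher, and Hoxc11 had 406 (5.91 CPM), at least 77.5-fold higher. Hotair had 214 (3.11 CPM), at least 40.9-fold higher, and Hoxc12 had 85 (1.24 CPM), at least 16.2-fold higher. Per kb of exons these 4 genes were at 1.20 to 3.97 CPM per kb in mutant dopamine nuclei, above Hoxc10 and below Hoxc5 and Hoxc4. The level therefore did not fall steadily from Hoxc4 to Hoxc13, since Hoxc12 was below both Hoxc11 and Hoxc13. Hoxc10 in the middle was the lowest of the 7 rows, but its gene model overlaps that of Hoxc5. Whether its count lost reads there was not tested.

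The annotation bears on which genes have a row and on Hoxc10 (GENCODE M21, GRCm38, all on the plus strand of chromosome 15). Hoxc10 spans 102966796 to 102971893, Hoxc9 102976439 to 102985099, Hoxc8 102990607 to 102994111 and Hoxc6 102998257 to 103011881. Hoxc5 spans 102967443 to 103017429, because a noncoding transcript of 48.2 kb extends it over its neighbours, while its coding transcript covers 103013815 to 103017429 (3.615 kb). Hoxc4 spans 103018934 to 103036852, starting 1504 bases after Hoxc5 ends. Hoxc6, Hoxc8 and Hoxc9 thus lie wholly inside the Hoxc5 span, and Hoxc10 lies in it for 87.3% of its length, shares 166 exon bases with it and has 647 bases outside. Among all protein-coding genes, 2 of the 367 that lie wholly inside another on the same strand have a row (0.545%), against 17682 of 21556 of the rest (82%). All 8 Hox genes so placed lack a row, and all 31 other Hox genes have one. How reads in an overlap were counted is not stated, and whether Hoxc5 counts hold any, or Hoxc10 counts lost any, was not tested. Why Hoxc6, Hoxc8 and Hoxc9 lack a row was not tested either.

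Genes flanking the cluster within 300 kb mostly stayed level. Of 13 flanking rows 9 are protein-coding, and all 7 of these with at least 10 UMIs were within 2-fold between the libraries, on the plain ratio. By the rule with the pseudocount 0.956% of all genes were higher and 0.3% lower, so staying within 2-fold is not particular to the flanks. Calcoco1, an autophagy and transcription cofactor, was at 24.9 CPM in mutant and 24.6 CPM in wt dopamine nuclei. Smug1, a uracil-DNA glycosylase, was at 7.55 CPM in mutant and 8.79 CPM in wt dopamine nuclei. Past Hoxc4 stand 4 noncoding rows with a mixed pattern. Gm10830, 65.4 kb past the end of Hoxc4, was at 10.2 CPM in mutant and 0.23 CPM in wt dopamine nuclei (ratio 44.7, 23.4 to 98.1). D930007P13Rik, 86.2 kb past it, was at 10.4 CPM in mutant and 1.5 CPM in wt dopamine nuclei (ratio 6.93, 5.31 to 9.20). Gm28876, 59.3 kb past Hoxc4 and so nearer than both, was at 1.11 CPM in mutant and 0.79 CPM in wt dopamine nuclei (ratio 1.40, 0.91 to 2.21).

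**Figure D2:**
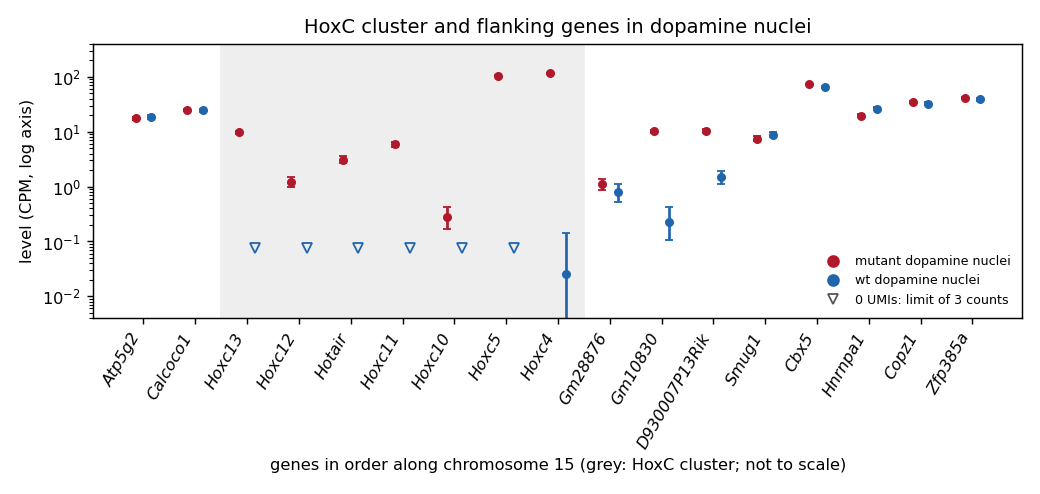
Level (CPM, log axis, exact 95% intervals) of genes in order along chromosome 15, not to scale, in mutant (red) and wt (blue) dopamine nuclei. Grey marks the cluster and triangles a class with 0 UMIs. Hoxc13 to Hoxc4 are above the wt level, Gm10830 and D930007P13Rik stand apart among the flanks, and coding neighbours such as Calcoco1 (24.9 against 24.6 CPM) coincide.

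The share of nuclei with a HoxC UMI depends on depth, so each nucleus was thinned to 10000 UMIs and shallower nuclei were left out. Of 2354 mutant dopamine nuclei 1462 held a UMI of Hoxc4, Hoxc5 or Hoxc10 (62.1%, 60.1 to 64.1), against 0 of 1157 wt dopamine nuclei, which allows a share of up to 0.26%. Without thinning the share was 65.0% of mutant and 0.076% of wt dopamine nuclei. Hoxc4 was found in 50.3% of the thinned mutant dopamine nuclei, Hoxc5 in 46.7% and Hoxc10 in 0.34%. Oligodendrocyte-marker nuclei, which should lack these genes, served as background at their lower depth (median 3680 UMIs in the mutant and 3559 in the wt library). Thinned to 2000 UMIs, 0 of 52 such mutant nuclei held a HoxC UMI, which allows up to 5.77%, against 27.0% of mutant dopamine nuclei (median 19023 UMIs before thinning). Unthinned, all 64 mutant and all 47 wt oligodendrocyte-marker nuclei were at 0 HoxC UMIs. In the mutant ones 3 counts would be 7.89 CPM of HoxC, and the exact Poisson interval reaches 9.71 CPM. Levels near those cannot be set apart from this background. The same mutant nuclei held 3 HoxB UMIs in 2 nuclei and 2 HoxD UMIs in 2 nuclei.

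Levels within the mutant dopamine nuclei were uneven. Among the 2354 thinned nuclei 892 (37.9%) held no HoxC UMI, 24.1% held 3 to 5 and 9.52% held 6 to 10, and the highest held 17. The mean was 2.10 UMIs per nucleus and the variance 6.13. Hoxc4 and Hoxc5 were found together in 823 nuclei, and 823 nuclei (35.0%, 33.0 to 36.9) held UMIs of at least 2 of the 3 genes. Hoxc5 was found in 69.5% of the nuclei with Hoxc4 and in 23.6% of those without it. Of the 8 nuclei with Hoxc10, 7 also held Hoxc4. Of the 168 nuclei with Hoxc13, at the far end of the cluster, 135 held Hoxc4 (80.4%). Over these nuclei the log1p levels of Hoxc4 and Hoxc5 had a Pearson r of 0.51, and summed HoxC had an r of 0.27 with log depth before thinning. The nuclei come from 1 pooled library and are not replicates.

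HoxC-carrying nuclei also carried the other clusters more often, but not always. HoxB UMIs were found in 75.6% of the 1462 carrying and 25.2% of the 892 lacking nuclei. HoxD UMIs were found in 60.5% of carrying and 17.4% of lacking nuclei, and HoxA UMIs in 49.2% of carrying and 22.2% of lacking nuclei. Of the carrying nuclei 91.2% held a UMI of HoxA, HoxB or HoxD, and 44.6% of the lacking nuclei did. The 2 highest genes of each cluster in mutant dopamine nuclei were Hoxb3 (50.01 CPM) and Hoxb6 (45.9 CPM), Hoxd11 (42.5 CPM) and Hoxd10 (20.3 CPM), and Hoxa9 (19.7 CPM) and Hoxa7 (17.0 CPM). In wt dopamine nuclei the same 6 genes had 0 UMIs except Hoxd11, which had 1. By the 2-fold rule, 5 of 9 measured HoxB, 4 of 6 HoxA and 4 of 6 HoxD genes were higher in mutant dopamine nuclei and none was lower. So were 2 of 3 further HoxC genes (Hoxc11 and Hoxc13), beside 0.956% higher over all genes. With the pseudocount of 5, a gene at 0 in wt dopamine nuclei is not called below 5 CPM. The measured Hox genes left uncalled all had 0 UMIs there. In mutant dopamine nuclei they had from 54 UMIs (Hoxb13, at least 10.3-fold higher) to 249 UMIs (Hoxd8, at least 47.6-fold higher). Of the Hox cofactors of the Pbx, Meis and Pknox families, 1 of 9 was higher and none was lower, beside 0.956% and 0.3% over all genes. It was Meis2, at 55.0 CPM in mutant and 14.6 CPM in wt dopamine nuclei. Cdx2, a caudal factor that acts upstream of Hox genes in the embryo, had 151 UMIs in mutant dopamine nuclei (2.20 CPM) and 0 in wt dopamine nuclei, and Cdx1 and Cdx4 were not analysed here.

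Within the mutant library the summed HoxC level was 224.2 CPM in dopamine and 34.6 CPM in other nuclei, a ratio of 6.47 (5.99 to 7.0). Hoxc4 and Hoxc5 were both called higher in dopamine than in other nuclei, where 1.23% of 15974 genes were higher and 1.88% lower. Hoxc4 was 5.84 times as high (5.28 to 6.48) and Hoxc5 7.42 times (6.58 to 8.40), while Hoxc10 gave a ratio of 1.79 (0.53 to 9.46). The size of this gap rests on Ddc, which makes dopamine from its precursor. Without Ddc in the rule the ratio was 1.49, since the 1269 nuclei that reach 5 UMIs per 10000 only with Ddc had 222 CPM of HoxC, close to the 226 CPM of the 1606 nuclei that reach it without. With other nuclei restricted to those below 1 dopamine UMI per 10000, the ratio was 20.5.

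The share of nuclei with HoxC changed with the dopamine gene level. After thinning to 10000 UMIs, 6.65% of mutant nuclei with 0 to 1 dopamine UMIs per 10000 held a HoxC UMI (median depth 14073 UMIs), and 9.68% of those with 1 to 2. Just outside the threshold, at 2 to 5, the share was 29.5% (23.9 to 35.7), and just inside, at 5 to 10, it was 59.6% (55.7 to 63.4). It was 66.9% (64.3 to 69.4) at 10 to 20 and 48.8% (43.5 to 54.0) at 20 to 50, where the median depth was 14171.5 UMIs. The highest level was thus not in the nuclei richest in dopamine transcripts. In the summed counts the same mutant bins gave 10.9, 24.0, 74.5, 203, 247 and 163 CPM of HoxC. In every wt bin the thinned share was 0%.

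**Figure D3:**
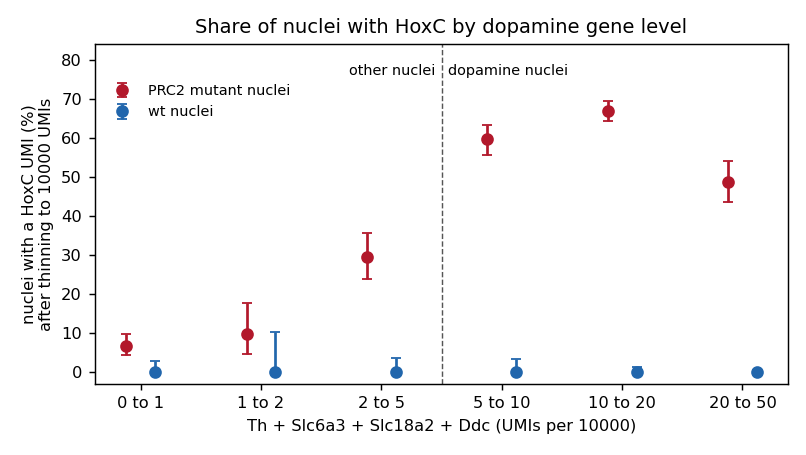
Share of nuclei with a HoxC UMI after thinning to 10000 UMIs (percent, exact 95% binomial intervals), by the summed UMIs of Th, Slc6a3, Slc18a2 and Ddc per 10000, in PRC2 mutant (red) and wt (blue) nuclei. The dashed line is the limit between other and dopamine nuclei. The mutant share is highest at 66.9% in the bin of 10 to 20 and lower, at 48.8%, in the bin of 20 to 50.

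Carrying and lacking nuclei were next compared gene by gene within mutant dopamine nuclei, on the thinned counts. Carrying nuclei were deeper before thinning, with a median of 25058 UMIs against 18300.5 in lacking nuclei, and 654 of the 892 lacking nuclei were also at 0 HoxC UMIs in their unthinned counts. The median dopamine gene level was 13.3 UMIs per 10000 in carrying and 13.8 in lacking nuclei. With at least 100 UMIs over both, 66 of 11114 genes were at least 2-fold higher in carrying nuclei (0.594%) and 91 were lower (0.819%). Of these, 53 higher and 91 lower genes lay outside the Hox clusters. HoxC itself defines the classes and is no finding here.

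The genes with the highest ratios outside the Hox clusters were a mix of neuronal genes and genes nearly silent in wt dopamine nuclei. Grin2c, an NMDA receptor subunit, was at 71.8 CPM in carrying and 13.6 CPM in lacking nuclei, and at 24.4 CPM in wt dopamine nuclei. Kcns3, a potassium channel subunit, was at 140 CPM in carrying and 39.0 CPM in lacking nuclei. Col25a1, a membrane collagen, was at 1073 CPM in carrying and 327 CPM in lacking nuclei, and at 933 CPM in wt dopamine nuclei. For all 3 the wt level lay between the classes, for Kcns3 at 124 CPM. Pax3, a factor of the dorsal neural tube, was at 132 CPM in carrying and 34.3 CPM in lacking nuclei, and at 0.26 CPM in wt dopamine nuclei. The noncoding Vax2os was at 101 CPM in carrying and 27.0 CPM in lacking nuclei, and Tbx15, a T-box factor, at 82.5 CPM in carrying and 24.6 CPM in lacking nuclei. Gm10830, the noncoding gene past Hoxc4, was at 14.6 CPM in carrying and 1.35 CPM in lacking nuclei, and AC162693.1 at 12.7 CPM in carrying and 0.78 CPM in lacking nuclei.

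At the low end, Cdh6, a cadherin, was at 14.0 CPM in carrying and 66.6 CPM in lacking nuclei. Pde1a, a calmodulin-dependent phosphodiesterase, was at 163 CPM in carrying and 512 CPM in lacking nuclei. Chrm2, a muscarinic receptor, was at 24.0 CPM in carrying and 87.4 CPM in lacking nuclei. Cntnap3, Sulf1, Eya1, Casr and Nrp1 completed the 8 lowest, with carrying nuclei at 0.19 to 0.30 times the level of lacking nuclei. For Cdh6, Pde1a and Chrm2 the wt level (39.0, 380 and 38.5 CPM) lay between the classes.

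Some genes of the substantia nigra subtype were higher, and some of the ventral tegmental subtype lower, in carrying nuclei. Both lists were chosen with earlier results of these data known, so their counts lend no independent weight. Of 9 measured nigral genes 3 were at least 2-fold higher and none was lower, beside 0.594% higher and 0.819% lower over all genes. The median log2 difference was 0.60, against 0.02 over all genes. Sox6, which marks nigral dopamine neurons, was at 539 CPM in carrying and 242 CPM in lacking nuclei (ratio 2.23, 2.12 to 2.34). Ndnf, a secreted factor, was at 39.8 CPM in carrying and 11.2 CPM in lacking nuclei (ratio 3.55, 2.87 to 4.44), and Col25a1 was the other one. Aldh1a1 lay the other way, at 72.0 CPM in carrying and 144 CPM in lacking nuclei (ratio 0.50, 0.46 to 0.54), and so did Anxa1, at 2.26 CPM in carrying and 6.84 CPM in lacking nuclei, with too few UMIs to be measured. Both genes mark ventral nigral neurons. Cbln1, also with too few UMIs, was at 2.33 CPM in carrying and 5.38 CPM in lacking nuclei (ratio 0.43, 0.27 to 0.68), and Vcan was at 28.0 CPM in carrying and 33.4 CPM in lacking nuclei (ratio 0.84, 0.72 to 0.98). Of the 3 calls, Sox6 did not reach 2-fold after thinning to 5000 UMIs (log2 difference 0.96).

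Of 11 measured tegmental genes 6 were at least 2-fold lower and none was higher (median log2 difference -1.0), beside 0.819% lower and 0.594% higher over all genes. They were Otx2, Otx2os1, Calb1, Eya1, Slc17a6 and Klhl14. After thinning to 5000 UMIs Otx2 (log2 difference -0.97) and Slc17a6 (-0.999) did not reach 2-fold. In nuclei of 10000 to 30000 UMIs, an alternative chosen after seeing the data, Calb1 (-0.98) and Klhl14 (-0.89) did not, and Klhl14 (-0.96) did not at a dopamine threshold of 10. Otx2, the homeodomain factor of this subtype, was at 4.58 CPM in carrying and 14.6 CPM in lacking nuclei (ratio 0.31, 0.23 to 0.43). Calb1, a calcium buffer, was at 41.4 CPM in carrying and 89.3 CPM in lacking nuclei (ratio 0.46, 0.42 to 0.52). Between the libraries the same lists behaved otherwise. Of 12 nigral genes none was called higher and 2 (Ndnf and Anxa1) were called lower in mutant than in wt dopamine nuclei. Of 14 tegmental genes none was called. The median log2 difference between the libraries was -0.67 over the nigral and 0.045 over the tegmental list, against 0.019 over all genes. The nigral list thus lay lower in the mutant beyond its 2 calls.

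**Figure D4:**
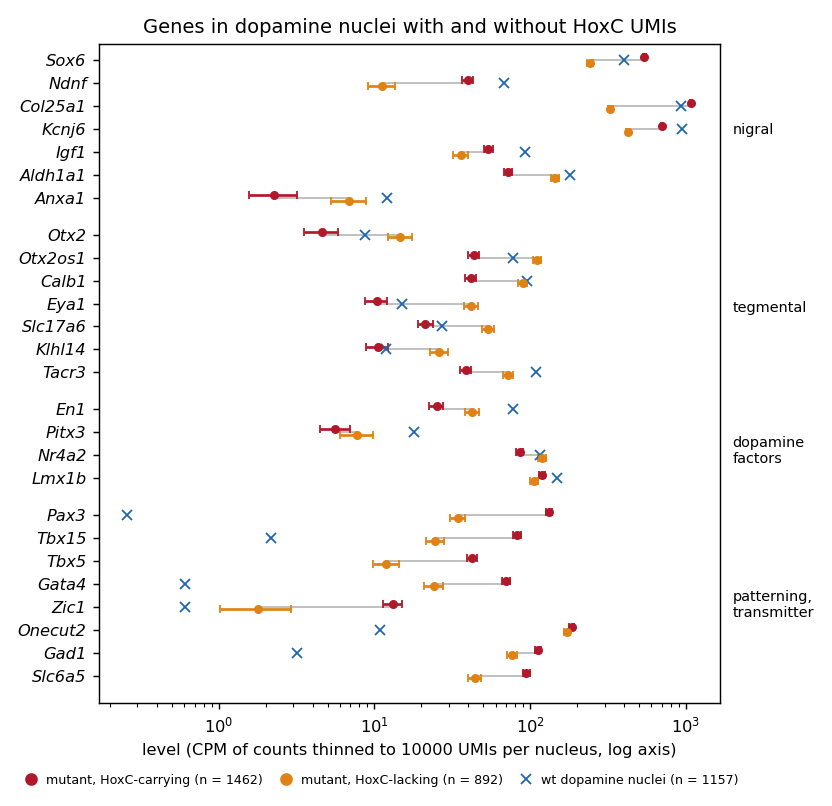
Level of subtype, dopamine, patterning and transmitter genes (CPM of thinned counts, log axis, exact 95% intervals) in HoxC-carrying (red) and HoxC-lacking (orange) mutant dopamine nuclei, with wt dopamine nuclei as blue crosses where above 0. Sox6 (539 against 242 CPM) and Otx2 (4.58 against 14.6 CPM) lie on opposite sides, and Aldh1a1 is lower in carrying nuclei.

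Read the other way, the share of carrying nuclei was 72.2% (69.9 to 74.4) among mutant dopamine nuclei with a Sox6 UMI and 41.1% (37.6 to 44.7) among those without. It was 35.9% (28.7 to 43.6) with an Otx2 UMI and 64.1% (62.1 to 66.2) without. Of 1336 nuclei with Sox6 and without Otx2 or Otx2os1, 75.0% (72.6 to 77.3) carried HoxC, and of 340 with Otx2 or Otx2os1 and without Sox6, 37.9% (32.8 to 43.3) did. HoxC UMIs were thus found in both kinds of nuclei.

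**Figure D5:**
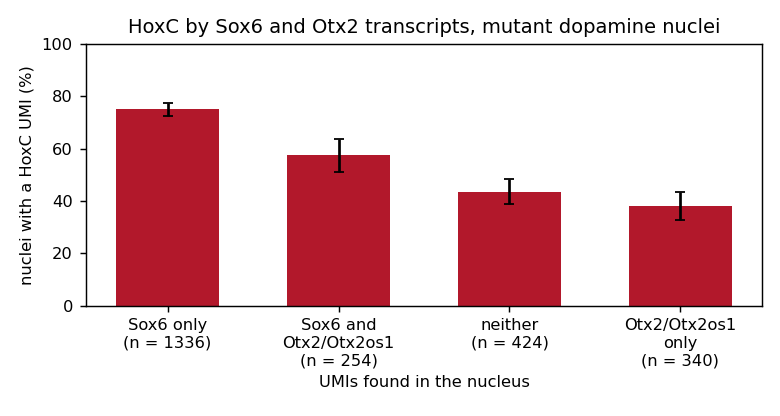
Share of thinned mutant dopamine nuclei with a HoxC UMI (percent, exact 95% binomial intervals) by whether Sox6 and Otx2 or Otx2os1 UMIs were found. It is 75.0% with Sox6 alone, 57.5% with both, 43.6% with neither and 37.9% with Otx2 or Otx2os1 alone.

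Of 13 measured patterning genes 9 were at least 2-fold higher in carrying nuclei and none was lower, beside 0.594% higher over all genes. Between the libraries 12 of 17 were higher in mutant dopamine nuclei, beside 0.956% over all genes. The 12 include Cdkn2a, a cyclin kinase inhibitor rather than a patterning factor. The list was chosen with earlier results of these data known, so these counts lend no independent weight. Tbx5, known from the forelimb and heart, was at 42.3 CPM in carrying and 11.9 CPM in lacking nuclei, and at 0 in wt dopamine nuclei. Onecut2 did not follow, at 185 CPM in carrying and 172 CPM in lacking nuclei, though it was at 172 CPM in mutant and 11.9 CPM in wt dopamine nuclei. Markers of other transmitters also differed between the libraries. Gad1, the enzyme that makes GABA, was at 99.4 CPM in mutant and 4.29 CPM in wt dopamine nuclei, and Slc6a5, the glycine transporter of spinal and hindbrain neurons, at 73.4 CPM in mutant and 0.13 CPM in wt dopamine nuclei. In carrying nuclei Gad1 was at 112 CPM and Slc6a5 at 94.4 CPM, against 76.7 and 43.9 CPM in lacking nuclei. Gad2 lay the other way, at 70.8 CPM in carrying and 83.9 CPM in lacking nuclei (ratio 0.84, 0.77 to 0.93). Of the 5 transmitter genes measured between carrying and lacking nuclei, Slc6a5 was called higher and Slc17a6 lower, and Gad1 was not called. Over all genes 0.594% were higher and 0.819% lower there. Of the 6 transmitter genes measured between the libraries, Gad1, Gad2 and Slc6a5 were called higher in mutant dopamine nuclei, beside 0.956% over all genes. Their part in the HoxC result was not tested.

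Factors that hold dopamine identity did not separate the classes at 2-fold. Of 8 measured, none was called in carrying over lacking nuclei, though 7 of the 8 lay lower. En1 was at 25.0 CPM in carrying and 42.4 CPM in lacking nuclei, and Lmx1b at 119 CPM in carrying and 106 CPM in lacking nuclei. Between the libraries En1 and Pitx3, of 9 measured, were called lower, beside 0.3% over all genes. They were at 29.3 and 6.33 CPM in mutant and 75.1 and 18.1 CPM in wt dopamine nuclei. Of the cofactors Meis2 was called higher in carrying nuclei (65.6 CPM) than in lacking nuclei (23.2 CPM), and the other 8 were not called.

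Across the 2354 mutant dopamine nuclei, the genes outside the Hox clusters most like summed HoxC by Pearson r of log1p UMIs per 10000 were Col25a1 (0.60), Nos1ap (0.60), Vax2os (0.59), Pax3 (0.58), Prkca (0.57), Kcns3 (0.56), Kcnd3 (0.54) and Frmd4b (0.53), out of 12749 genes. The most opposite was Il1rapl1 (-0.56), an adhesion protein of synapses. Hoxb3 (0.56) and Hoxb6 (0.55) were the most alike of the other Hox genes. The points share a library and a class, and these values are a description.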

How the data were processed

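Nuclei of adult mouse midbrain were sorted and made into 10x Single Cell 3′ v3 libraries, per the labels' protocols. Cell Ranger 3.1.0 and mm10 are named in the submitters' processing notes. The deposited table holds raw UMI counts by gene and nucleus, not normalised by the authors. The annotation they counted with, and how nuclei were chosen, are not given in the sources used here. Genotype was read from the start of each nucleus name.

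Within a class, counts of all nuclei were added up and scaled to 1000000 (CPM). Intervals are exact (Poisson for sums, Clopper-Pearson for shares, binomial split for ratios; 95%), and a class at 0 was set at 3 counts. Thinning was without replacement. Positions came from GENCODE M21, promoter windows from RefSeq. The homeobox stretch was found by its conserved translated motif. No doublet caller was run, and leaving out nuclei over 50000 UMIs was an alternative. The calls were tried on simulated Poisson counts with changes larger than 2-fold. These hold no variation between mice, libraries or nuclei, so they do not bear on that error or on calls near 2-fold. Python 3.11.15, numpy 2.4.6, scipy 1.17.1, pandas 2.3.3, matplotlib 3.10.9, and R 4.3.3 with edgeR 4.0.16 and DESeq2 1.42.0 (for scaling factors alone) were used.

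The genes, lists and comparisons were chosen with earlier results of these data known. Named genes were the 6 genes, fixed lists, the 2 highest per other Hox cluster, genes within 300 kb, and the 8 with the highest, lowest and most alike values. No sample was left out. Some items withheld for evaluation are not reported here.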

Additional observations from a re-analysis of the deposited data

How the results depend on the processing

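The summed HoxC ratio of mutant over wt dopamine nuclei kept its direction under all alternatives run. It was 4472 at a dopamine threshold of 20 UMIs per 10000 and 25988 as a mean over nuclei, and rests on 1 wt UMI. Hoxc4 and Hoxc5 were called in each of the alternatives run. The ratio of mutant dopamine over mutant other nuclei (6.47) was 4.71 at a threshold of 20, 1.49 without Ddc in the rule and 20.5 with other nuclei below 1 per 10000. The share of mutant dopamine nuclei with HoxC (62.1%) was 27.0% and 46.4% after thinning to 2000 and 5000 UMIs and 65.0% unthinned, and that with at least 2 of the genes (35.0%) was 4.88%, 17.0% and 48.3%. Fewer UMIs per nucleus lower such shares by construction. Hoxc4 over Hoxc5 (1.11) was 1.34 per kb of exons and 3.1 per kb of annotated span, which for Hoxc5 is set by a noncoding transcript. The counts of genes outside the Hox clusters higher and lower in carrying nuclei (53 and 91) were 84 and 204 with carrying set at 3 or more UMIs. Thinning to 5000 UMIs gave 34 higher and 92 lower. With lacking nuclei also at 0 in their unthinned counts, an alternative chosen after seeing the data, they were 90 and 127. In nuclei of 10000 to 30000 UMIs, chosen likewise, they were 70 and 99, with 51 and 83 of the original genes shared. Sox6, Otx2, Slc17a6, Slc6a5, Pax6, Sim2 and AC162693.1 did not reach 2-fold after thinning to 5000. Klhl14, Calb1, Pax6 and Sim2 missed it under at least 1 other alternative, and Aldh1a1 passed it as lower with carrying at 3 or more UMIs. The cause was not tested. Leaving out a replicate was not possible, since nuclei carry no lane label. No paired analysis was possible because there is 1 library per genotype.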

Other observations

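In wt other nuclei, 2 nuclei held HoxB UMIs, and Hoxb3 had 6 UMIs there, against 160 UMIs in mutant other nuclei. Hoxd13 had 15 UMIs in mutant other and 2 in wt other nuclei. Hoxc4, Hoxc5 and Hoxc10 had 0 UMIs in wt other nuclei.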
